A study of Mus musculus with 2 samples.

Results

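Apoa2, B930036N10Rik, Gm46332 and 1700097N02Rik are 4 of the 32285 genes counted in single mouse embryonic stem cells before and after 10 further passages. They were chosen by name because their RNA level was much higher after passaging or because they led a late-passage cluster, so their difference between the libraries is a description and carries no test. The questions are how far the share of chromosome 1 RNA in a cell goes along with the higher level of the chromosome 1 genes Apoa2 and B930036N10Rik, and which cells hold the RNA of all 4. The cells came from the inbred strain C3H/HeSn-Paf/J, from 9 embryonic stem cell lines (3 from XX, 3 from XO and 3 from XY embryos) that were mixed. They grew on gelatin and irradiated mouse embryonic fibroblasts (feeders) in serum medium with leukaemia inhibitory factor. One library was made at time 1, at an early passage, and 1 at time 2, and neither group received a treatment other than passaging. The lipid tags of the lines were not analysed here. Each library is thus 1 sample, no test between groups was made, and all intervals below are 95% intervals that cover counting error only. A difference between the libraries and a difference between the time points cannot be told apart.

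Apoa2 encodes apolipoprotein A-II, a protein of high-density lipoprotein particles that is made mainly in the liver. The other 3 are annotated as long non-coding RNAs, and no function is stated for them here. Mouse embryonic stem cells kept in culture often gain whole chromosomes, and a gene on a gained chromosome is present in an extra copy, so that its RNA tends to increase along with that of its neighbours. Such cultures also hold cells in several states, from naive to primed pluripotency, which differ in many genes.

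In GENCODE M21 (GRCm38), Apoa2 (ENSMUSG00000005681) lies at chr1:171225054-171226379 on the plus strand and is protein-coding. B930036N10Rik (ENSMUSG00000091993) lies 274 kb further along the same chromosome, at chr1:171500568-171504111 on the minus strand, and is annotated as antisense, since 634 of its bases overlap the plus-strand gene Alyref2. Gm46332 (ENSMUSG00000112819), an intergenic RNA, lies at chr12:4552546-4569538 on the minus strand. The gene 1700097N02Rik (ENSMUSG00000099474) lies at chr17:30622441-30626905 on the minus strand. Of its 4465 bases, 4431 lie within Glo1, on the same strand, and it also overlaps Dnah8, on the other strand. Whether the counting used strand is not given in the sources used here, so counts of B930036N10Rik and 1700097N02Rik are uncertain where these genes overlap. Strand would not separate 1700097N02Rik from Glo1 in any case. Alyref2 was counted at 3.66 CPM at time 1 and 1.71 CPM at time 2, below B930036N10Rik at both, where CPM, the usual unit of sequencing levels, gives the unique molecular identifiers (UMIs) of the gene relative to all UMIs of the cells. Glo1, which encodes glyoxalase 1, had 334.6 and 294.1 CPM, so it was lower at time 2, whereas 1700097N02Rik was higher.

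RefSeq promoters (GRCm38.p6, 250 bases before to 50 after the start) were listed for 3 of the 4 genes, with 2 entries for Apoa2, and are printed because these genes were all higher in the same library. They run 5′ to 3′ on the strand of the gene, and capitals mark matches to any of 8 motifs searched on both strands. These were the TATA box (TATAAA, in 13.6% of all 32851 RefSeq promoters of this length), the CCAAT box (CCAAT, 37.4%), the GC box (GGGCGG, 35.7%), the E-box (CACGTG, 7.15%), the binding motif of orphan nuclear receptors (AAGGTCA, 4.72%), the octamer motif (ATGCAAAT, 1.74%), the STAT motif (TTCCNGGAA, 1.15%) and the nuclear receptor repeat DR1 (0.0396%). The windows are chr1:171224804-171225103 (plus) for the first Apoa2 entry, chr1:171221314-171221613 (plus) for the second, chr12:4569524-4569823 (minus) and chr17:30626856-30627155 (minus).
Apoa2: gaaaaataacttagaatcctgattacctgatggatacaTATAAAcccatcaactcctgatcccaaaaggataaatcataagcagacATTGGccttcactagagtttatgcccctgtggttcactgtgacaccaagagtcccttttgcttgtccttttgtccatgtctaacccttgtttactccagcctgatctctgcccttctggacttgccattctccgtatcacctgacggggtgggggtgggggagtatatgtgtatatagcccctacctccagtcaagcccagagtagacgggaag
Apoa2, second entry: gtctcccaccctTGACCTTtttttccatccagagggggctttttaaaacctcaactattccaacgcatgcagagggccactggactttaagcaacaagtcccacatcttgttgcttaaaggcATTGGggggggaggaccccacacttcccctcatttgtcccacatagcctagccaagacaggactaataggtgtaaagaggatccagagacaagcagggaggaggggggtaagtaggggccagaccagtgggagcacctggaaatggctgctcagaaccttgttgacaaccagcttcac
Gm46332: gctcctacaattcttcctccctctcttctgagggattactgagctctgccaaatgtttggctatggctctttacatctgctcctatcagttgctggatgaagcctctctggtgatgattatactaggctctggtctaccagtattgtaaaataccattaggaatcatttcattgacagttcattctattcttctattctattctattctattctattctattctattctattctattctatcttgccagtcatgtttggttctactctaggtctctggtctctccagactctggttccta
1700097N02Rik: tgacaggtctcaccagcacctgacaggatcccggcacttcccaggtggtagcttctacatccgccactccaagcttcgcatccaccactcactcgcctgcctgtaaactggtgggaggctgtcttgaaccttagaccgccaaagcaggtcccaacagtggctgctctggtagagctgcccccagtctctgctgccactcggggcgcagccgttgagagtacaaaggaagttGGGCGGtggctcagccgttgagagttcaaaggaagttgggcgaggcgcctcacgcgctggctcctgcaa

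The first Apoa2 window held TATAAA, 212 bases before the start, and 1 match to CCAAT on the opposite strand, 164 bases before it. The second held AAGGTCA and CCAAT, both on the opposite strand, 238 and 128 bases before its start. The 1700097N02Rik window held GGGCGG, 19 bases before the start, and 14 CpG, against a median of 7 in all promoters. The Gm46332 window held none of the 8 motifs and no CpG. No motif was found in all 4 windows.

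After filtering, 23211 cells remained at time 1 (median 44364 UMIs per cell) and 25483 at time 2 (median 50377), and 157 cell barcodes occurred in both libraries. Joint clustering, which left out the 4 genes and all genes within 1 Mb of them, gave 14 clusters, each called here by its leading gene. The main population was the cells of the 7 clusters with no marker of another cell class among their 10 leading genes, with 15979 cells at time 1 and 20063 at time 2. Its makeup differed between the libraries. At time 1 most cells lay in the Rhox9-led cluster (7220) and the Spry2-led cluster (5947, with the low median of 28781 UMIs), and at time 2 in the Tdh-led (11486) and Nanos3-led (5500) clusters. The marker lists were drawn up with earlier results of these data known, so the counts that follow are descriptions. Between 11 and 12 of 12 pluripotency markers were detected in every cluster, also in those with fibroblast or macrophage markers. Detection asked only for a UMI in a small part of a cluster's cells and does not tell stem cells from others. In the population 5 of the 11 pluripotency markers with at least 10 CPM were at least 2-fold higher at time 2 (Zfp42, Klf4, Tbx3, Tfcp2l1 and Tdh). The same held for 1.26% of the 7385 genes with that minimum. The summed level of the 12 was nevertheless lower, at 8919 CPM at time 1 and 7017 CPM at time 2, with Dppa5a alone at 7110 and 4468 CPM. Of 6 primed epiblast markers, 4 were at least 2-fold lower (Fgf5, Fgf8, Pou3f1 and Car2), and the share of all genes that were so is not given here. The population leaves out the clusters led by such markers. Of those, the Fgf8-led cluster held 26.1% of all cells at time 1 and 0.958% at time 2, and the Car2-led cluster 0.457% and 15.45%. The 7 trophoblast markers together made up 135.0 CPM at time 1 and 72.5 CPM at time 2, and of the 3 with at least 10 CPM, 2 were at least 2-fold lower. The 7 fibroblast markers together made up 14 CPM at time 1 and 5.88 CPM at time 2. Its 69 cells of the Krt18-led B cluster, all of time 1, had a median of 352626 UMIs. Values by cluster are given beside those of the population.

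All 4 genes stood between 2.88-fold and 3.8-fold higher at time 2 in the population. Apoa2 was counted at 14.8 CPM at time 1 (interval 14.6 to 15.1) and at time 2 at 56.3 CPM (55.9 to 56.8), a log2 ratio of CPM plus 1 of 1.86 (1.83 to 1.88). B930036N10Rik was counted at 16.3 CPM (15.98 to 16.5) and 60.1 CPM (59.6 to 60.5), a log2 ratio of 1.82. Gm46332 was counted at 15.2 CPM (14.98 to 15.5) and 49.8 CPM (49.4 to 50.2), a log2 ratio of 1.64, and 1700097N02Rik at 22.8 CPM (22.5 to 23.2) and 65.7 CPM (65.3 to 66.2), a log2 ratio of 1.49. Since the genes were chosen for this difference, these values only describe it.

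Against all genes the members stood near the top, as their choice implies. Of the 2838 genes that reached 50 CPM in 1 or both libraries, 47 (1.66%) were at least 2-fold higher at time 2, including all 3 members that reached this minimum. Apoa2 ranked 2nd, B930036N10Rik 3rd and 1700097N02Rik 6th, and Gm46332, just under the minimum at 49.8 CPM, was not ranked. The 3 ranked members reached the minimum only through time 2, so their count and ranks are descriptions. The places around them went to the histone genes Hist1h1b, Hist1h4d and Hist1h1e, to Tdh (threonine dehydrogenase, an enzyme abundant in mouse embryonic stem cells), to the mitochondrial gene mt-Atp8 and to the chromosome 1 genes Ncl, Glul and Tfcp2l1. Ncl, which encodes nucleolin, had 1882 CPM at time 1 and 4628 CPM at time 2. Glul (glutamine synthetase) had 32.4 and 79.4 CPM, and the naive pluripotency factor Tfcp2l1 30.2 and 71.8 CPM. Apoa2 and B930036N10Rik were the 1st and 2nd of 158 chromosome 1 genes, whose median log2 ratio was 0.49. Both reached the minimum only through time 2, so these ranks are descriptions too.

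**Figure D1:**
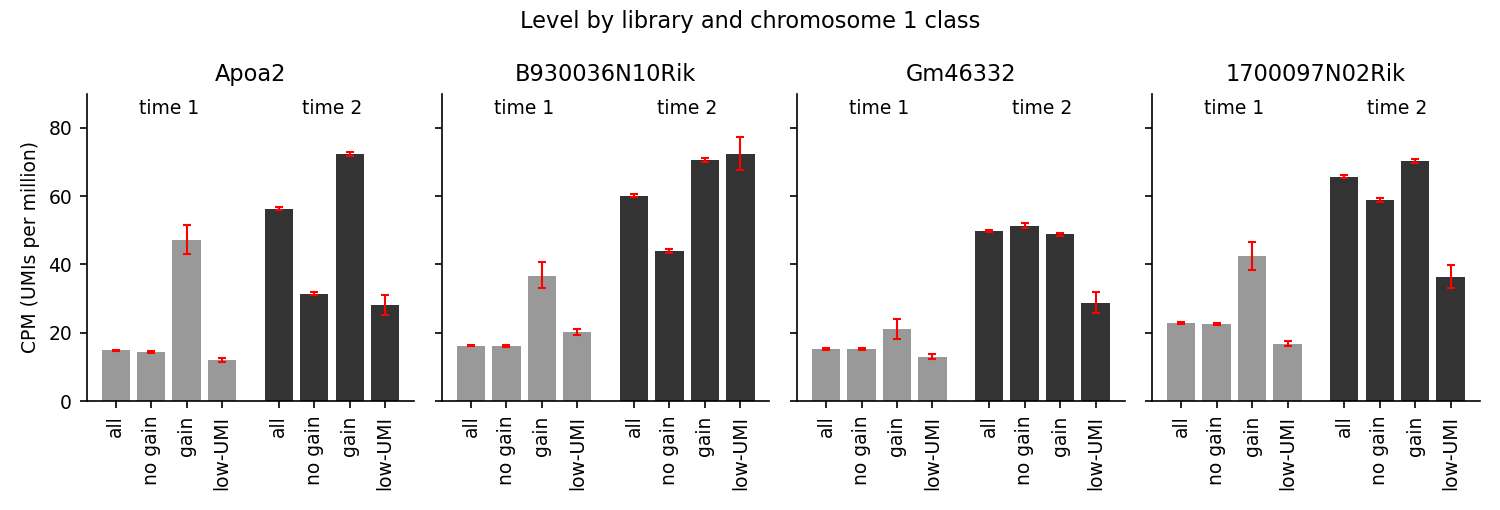
Level of each gene in CPM for time 1 (grey) and time 2 (black), in all cells of the population, in cells without and with a chromosome 1 gain, and in low-UMI barcodes. Red bars are 95% Poisson intervals. Apoa2 reached 72.4 CPM in gained and 31.5 CPM in ungained cells at time 2, whereas Gm46332 was near 50 CPM in both.

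The share of chromosome 1 was measured in each cell as its part of the autosomal UMIs of 11158 informative genes, divided by the median of the time 1 population, without the members and genes within 1 Mb of them. A ratio of at least 1.3 was called a gain. Gains were called in 165 of 15979 cells (1.03%, exact Clopper-Pearson interval 0.882 to 1.2%) at time 1 and in 12067 of 20063 (60.2%, 59.5 to 60.8%) at time 2, with a median ratio of 1.46 in the gained cells of time 2.

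Of the 4 genes, Apoa2 differed most between gained and ungained cells of the population. At time 2 it was at 72.4 CPM (71.8 to 73) in gained and 31.5 CPM (30.95 to 31.98) in ungained cells, a log2 ratio of 1.18, where the median of 173 chromosome 1 genes was 0.44. It was the 1 gene of 2740 (0.0365%) that stood at least 2-fold higher in gained cells, and ranked 1st, though it reached the minimum of 50 CPM only through the gained cells. With a gain threshold of 1.4 its log2 ratio was 0.80, which ends that call. At time 1, where only 165 cells were gained, Apoa2 was at 47.1 CPM (42.95 to 51.6) in them and at 14.4 CPM in the others, a log2 ratio of 1.64 (1.51 to 1.77). So Apoa2 was higher with a chromosome 1 gain in both libraries. Gained and ungained cells also differed in their X-linked share of RNA, as given further below. The gain was not compared within classes of that share.

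B930036N10Rik was at 70.4 CPM in gained and 43.96 CPM in ungained cells of time 2, a log2 ratio of 0.67, the 7th of 173 chromosome 1 genes. It too reached the minimum of 50 CPM only through the gained cells. At time 1 it was at 36.7 CPM (33 to 40.7) and 16 CPM, a log2 ratio of 1.15 (1.00 to 1.3). The genes of other chromosomes served for comparison. Gm46332 was at 48.75 CPM in gained and 51.4 CPM in ungained cells of time 2, a log2 ratio of -0.07, and at 20.98 and 15.2 CPM at time 1. The chromosome 17 gene 1700097N02Rik was at 70.2 and 58.8 CPM at time 2, a log2 ratio of 0.25, and at 42.4 and 22.6 CPM at time 1, a log2 ratio of 0.88.

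Levels were also compared between the libraries among ungained cells alone, where all 4 genes were still higher at time 2. Apoa2 was at 14.4 CPM at time 1 and 31.5 CPM at time 2, a log2 ratio of 1.07. B930036N10Rik was at 16 and 43.96 CPM, a log2 ratio of 1.4. Gm46332 was at 15.2 and 51.4 CPM (log2 ratio 1.69), and 1700097N02Rik at 22.6 and 58.8 CPM (log2 ratio 1.34). Of 2808 genes with at least 50 CPM here, 17 (0.605%) were at least 2-fold higher. Gm46332 and 1700097N02Rik are among them, but they reached the minimum only through time 2 and were chosen for this difference, so nothing is read from their count. The median of 144 chromosome 1 genes was 0.19. The threshold left some cells with a raised share among the ungained, whose median ratio was 1.06 at time 2. Restricted to cells with a ratio from 0.9 to 1.1, the log2 ratio of Apoa2 was 0.82 (0.78 to 0.86) and that of B930036N10Rik 1.26 (1.22 to 1.3).

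Across bins of the chromosome 1 ratio, Apoa2 at time 2 lay between 25.7 and 31.8 CPM from a ratio of 0.8 to 1.2, at 54.1 CPM from 1.2 to 1.3, and between 69.9 and 73.5 CPM above 1.3. Below 0.8, in 21 cells, it was at 19.5 CPM. The level thus had a step near the gain threshold. B930036N10Rik at time 2 was at 31.9 CPM in the bin from 0.8 to 0.9, at 40.2 to 45.3 CPM from 0.9 to 1.2, and at 56.2 to 76.1 CPM in the bins above, higher in each. At time 1 Apoa2 lay between 12.5 and 16.8 CPM in every bin below 1.3. It lay between 40.1 and 54.4 CPM in the 3 bins from 1.3 to 1.6, which held 28 to 66 cells each. The bin above 1.6 held too few time 1 cells for a level to be given. B930036N10Rik at time 1 was at 16.9 CPM from 1.2 to 1.3 and at 25.9, 48.2 and 35.2 CPM in the bins from 1.3 to 1.6. Gm46332 at time 2 stayed between 42.7 and 56.7 CPM over all bins. The chromosome 17 gene 1700097N02Rik was also higher above the threshold at time 1 in part. It was at 27.3 CPM from 1.2 to 1.3, at 47.0 and 45.9 CPM in the next bins, and at 27.8 CPM from 1.5 to 1.6.

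**Figure D2:**
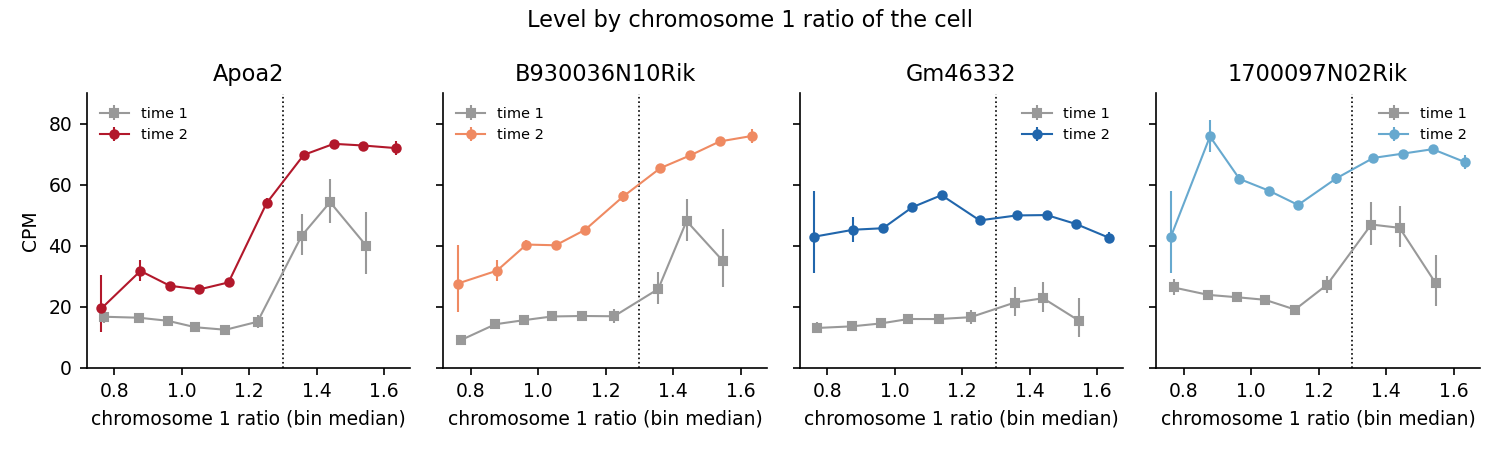
CPM of each gene by chromosome 1 ratio of the cell, for time 1 (grey squares) and time 2 (coloured circles). Points stand at the median ratio of bins of width 0.1 with 95% Poisson intervals, and the dotted line is the gain threshold of 1.3. Apoa2 steps up near the threshold in both libraries, and Gm46332 has no step at time 2. At time 1 the chromosome 17 gene 1700097N02Rik is also higher in the bins from 1.3 to 1.5 than below 1.3.

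To ask how much of the difference goes along with the chromosome 1 ratio, time 1 levels per bin were averaged with the shares of time 2 cells. The bin above 1.6 entered too, where very few time 1 cells stood for 897 cells of time 2. The reweighted time 1 level of Apoa2 was 33.7 CPM, which left a log2 ratio of 0.73 (0.61 to 0.84) and removed 60.9% of the log2 ratio measured. For B930036N10Rik the reweighted level was 29.6 CPM, the ratio left was 1.00 (0.88 to 1.12), and 45.2% was removed. The same step also removed 15.9% for Gm46332 and 33.4% for 1700097N02Rik, which are not on chromosome 1. Gained cells of time 1 thus differed from ungained ones in genes of other chromosomes too, and the portions removed for the chromosome 1 genes are not a measure of extra gene copies alone.

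The clusters differed in their share of gained cells and in the members' levels. At time 2 a gain was called in 78.2% of Tdh-led and 53.0% of Nanos3-led cells, but in 9.43% of Rhox9-led and 3.61% of Jam2-led cells. The Tdh-led cluster was led by Tdh, 1700097N02Rik, Gm46332, Apoa2, Nr0b1, Mymx, Mras, Zfp42, Hist1h1b and Enox1, although the members took no part in the clustering. Nr0b1 and Zfp42 mark naive mouse embryonic stem cells. Since the members were chosen partly for leading this cluster, its lead is not a finding.

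Levels were then compared by cluster. Apoa2 had its highest level in the Tdh-led cluster in both libraries, at 42.7 CPM (36.1 to 50.1) in the 55 cells of time 1 and 68.4 CPM in the 11486 of time 2. Next came the Nanos3-led cluster (named for an RNA-binding protein of germ cells), at 34.5 and 52.0 CPM. In the Rhox9-led cluster, led by homeobox genes of the X chromosome, Apoa2 was at 17.2 and 17.8 CPM, a log2 ratio of 0.05 (-0.07 to 0.16), which does not exceed counting error. The lowest level was in the Lhx1-led cluster, which carried the mesendoderm markers T, Mixl1, Eomes, Gsc and Lhx1, at 3.56 and 5.17 CPM. So Apoa2 varied about 12-fold between clusters at time 1 (11.98-fold) and 13.25-fold at time 2, and more between clusters than between libraries within a cluster. Among the 11 clusters with at least 50 cells in both libraries, it was at least 2-fold higher at time 2 in 1, the S100a4-led, fibroblast-like cluster, at 10.1 and 26.0 CPM, where 0.631% of genes with at least 10 CPM were. Whether the cells of that cluster also hold RNA of stem cells was not tested.

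Like Apoa2, B930036N10Rik was higher at time 2 in each of the 11 clusters. For Apoa2 the difference did not exceed counting error in Rhox9-led and Lhx1-led cells. Unlike Apoa2, B930036N10Rik had a level that was nearly even over clusters. It lay between 12.8 and 29.8 CPM at time 1 and between 35.3 and 67.2 CPM at time 2, a spread of 2.33-fold and 1.9-fold. Its log2 ratio was 1.44 (1.37 to 1.52) in Rhox9-led cells, 1.16 in Jam2-led, 1.70 in Nanos3-led, 1.4 in Fgf8-led and 1.76 in Lhx1-led cells. The lowest, 0.999, was in the fibroblast-like cluster, with 17.15 and 35.3 CPM, a 2.06-fold difference in CPM that falls just short on the log2 scale of CPM plus 1, on which every 2-fold call here was made. On that scale it was at least 2-fold higher in the other 10 clusters. Of genes reaching 10 CPM, the share that was so was 0.109% in Fgf8-led, 0.137% in Rhox9-led, 0.163% in Nanos3-led, 0.256% in Car2-led, 0.262% in Jam2-led and 0.35% in Tdh-led cells. It was 0.837% in Lhx1-led, 0.86% in B020031M17Rik-led, 1.19% in Krt18-led A and 1.74% in Srgn-led cells. Of 5943 genes with at least 10 CPM in all 11 clusters, 3 were at least 2-fold higher in 10 of them, and these were B930036N10Rik and the histone genes Hist1h1b and Hist1h4d, named after the values were seen. Barcodes with 500 to 2000 UMIs, below the cell filter, had a like difference. There B930036N10Rik was at 20.2 CPM at time 1 and 72.3 CPM (67.6 to 77.2) at time 2, above its level in the population in both libraries. Apoa2 was at 12.1 and 28.0 CPM there, below its level in the population. The part of free RNA in the cells' counts was not tested.

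Gm46332 had its highest level at time 2 in the Jam2-led cluster, which carried the naive pluripotency factor Tbx3, at 83.3 CPM (40.6 at time 1), followed by the Tdh-led cluster at 58.5 CPM (41.8 at time 1). The 2 clusters did not differ beyond counting error at time 1. The level was 1.72 and 3.63 CPM in the Fgf8-led cluster, 2.82 and 6.6 CPM in the Car2-led cluster and 0.955 and 1.99 CPM in the Lhx1-led cluster. The Fgf8-led and Car2-led clusters are grouped as primed epiblast-like. The former had Fgf5, Fgf8 and Pou3f1 among its leading genes. The Car2-led cluster had Car2 and Dnmt3b but also the mesendoderm marker T, and its name rests on a list drawn up with these data known. In the Rhox9-led and Nanos3-led clusters Gm46332 was at 11.1 and 10.9 CPM and at 18.98 and 18.1 CPM, with no difference between libraries beyond counting error. It was higher at time 2 in 9 of the 11 clusters and at least 2-fold higher in 5 of them. These were the Jam2-led, B020031M17Rik-led, Srgn-led, fibroblast-like and Krt18-led A clusters. In these, 0.262% to 1.74% of genes with at least 10 CPM were so, a minimum that Gm46332 missed in Krt18-led A cells. In Fgf8-led, Lhx1-led and Car2-led cells Gm46332 was 2.11-fold, 2.09-fold and 2.34-fold higher in CPM. At these low levels Gm46332 fell short on the scale of CPM plus 1. Its level thus spanned 43.8-fold over clusters at time 1 and 41.8-fold at time 2.

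The gene 1700097N02Rik was highest in the Tdh-led cluster in both libraries, at 69.0 CPM (60.6 to 78.3) at time 1 and 85.2 CPM at time 2, a log2 ratio of 0.30 (0.12 to 0.48). In the Rhox9-led cluster it was lower at time 2, at 23.4 and 19.4 CPM, a log2 ratio of -0.25 (-0.37 to -0.14). It was at 29.6 and 37.4 CPM in the Jam2-led cluster and at 26.9 and 38.9 CPM in the Nanos3-led cluster. The fibroblast-like cluster had 7.4 CPM at time 1 and 29.5 CPM at time 2. There the 67 cells called gained at time 2 stood at 69.96 CPM and the 610 ungained ones at 24.97 CPM, and Gm46332 was at 46.2 and 16.3 CPM in the same cells. Apoa2 was at 48.0 and B930036N10Rik at 49.0 CPM in these gained cells. A gain was called in 9.9% of this cluster at time 2 and 0.591% at time 1, and all 12 pluripotency markers were detected in it. Whether its gained cells are feeder cells or hold RNA of stem cells was not tested.

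**Figure D3:**
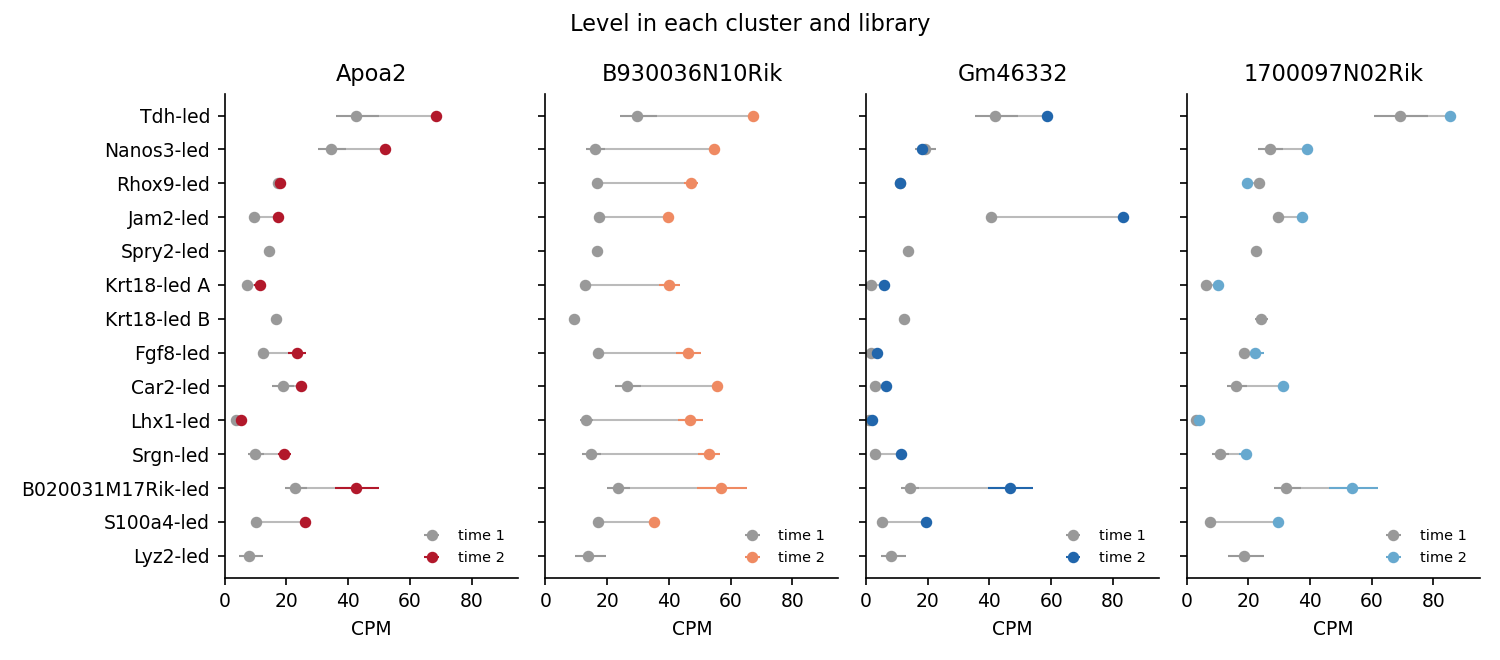
CPM of each gene in each cluster with at least 50 cells, for time 1 (grey) and time 2 (coloured), with 95% Poisson intervals. The time 2 levels of B930036N10Rik and of Apoa2 lie to the right of time 1 in all 11 clusters found in both libraries. Those of Apoa2 nearly coincide in the Rhox9-led cluster, at 17.2 and 17.8 CPM.

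Of the time 2 UMIs of Apoa2, 65.3% came from the Tdh-led cluster, which held 45.1% of the cells. The same cluster held 69.5% of the UMIs of 1700097N02Rik and 54.4% of those of B930036N10Rik. For Gm46332 the cluster with the highest level, the Jam2-led, held 18.8% of its UMIs and 8.49% of the cells. With finer clustering at resolution 1.0 the Tdh-led cells split, and the cluster with the highest level of Apoa2 then held 26.7% of its UMIs.

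Within the 2 clusters that held most time 2 cells, Apoa2 and B930036N10Rik were also higher in cells with a gain. In Tdh-led cells of time 2 Apoa2 was at 74.2 CPM with and 48.1 CPM without a gain, a log2 ratio of 0.61, the 6th of 170 chromosome 1 genes (median 0.37), and B930036N10Rik at 71.45 and 52.1 CPM, a log2 ratio of 0.45, the 60th. In Nanos3-led cells Apoa2 was at 68.0 and 32.8 CPM, a log2 ratio of 1.03, the 1st of 173, and B930036N10Rik at 65.7 and 41.6 CPM, a log2 ratio of 0.65. In none of the 4 members was the ratio at least 2-fold in Tdh-led cells, as in 0 of 2668 genes (0.0%), and in Nanos3-led cells it was in Apoa2, as in 0.0735% of genes. In both clusters Apoa2 reached the minimum of 50 CPM only through the gained cells, so its ranks and this call are descriptions. Gm46332 was at 57.4 CPM with and 62.7 CPM without a gain in Tdh-led cells. In the same cells 1700097N02Rik was lower with a gain, at 78.5 CPM against 109.1 CPM, a log2 ratio of -0.47, whereas in Nanos3-led cells it was higher, at 42.6 against 34.55 CPM. The few Tdh-led cells of time 1 had the same order for Apoa2, with 64.2 CPM (51.9 to 78.5) in 22 gained Tdh-led cells and 27.1 CPM (20.4 to 35.3) in 33 ungained ones.

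Ungained cells were also compared cluster by cluster, in the 9 clusters with enough of them at both times. Apoa2 had a log2 ratio of time 2 over time 1 of -0.07 (-0.19 to 0.06) in ungained Rhox9-led cells, 0.16 (-0.06 to 0.38) in Nanos3-led, 0.14 (-0.14 to 0.42) in Car2-led and 0.22 (-0.27 to 0.71) in Lhx1-led cells, none beyond counting error. It was 0.68 (0.58 to 0.78) in Jam2-led and 0.74 (0.55 to 0.93) in Fgf8-led cells, and 0.52 in Krt18-led A, 0.65 in Srgn-led and 1.16 in fibroblast-like cells. B930036N10Rik had log2 ratios of 1.21, 1.46, 1.05, 1.74, 1.12, 1.32, 1.41, 1.35 and 0.94 in the same 9 clusters, in that order. Its interval lay above 0 in each, and its ratio was above that of Apoa2 in all but the fibroblast-like cluster. In ungained Tdh-led cells, of which time 1 held 33, the time 1 level of Apoa2 was 27.1 CPM (20.4 to 35.3) and the time 2 level 48.1 CPM (47.0 to 49.2), a difference beyond counting error.

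Reweighting time 1 by cluster, and by cluster and gain together, was added after these values were seen. Here each class was weighted by its share of the time 2 UMIs, whereas the chromosome 1 bins above were weighted by shares of cells. With the cluster shares of time 2 the reweighted time 1 level of Apoa2 was 35.7 CPM, and a log2 ratio of 0.64 (0.48 to 0.81) was left. With clusters and gains together it was 46.8 CPM, the log2 ratio left was 0.27 (0.07 to 0.46), and 85.7% of the ratio measured was removed. For B930036N10Rik a log2 ratio of 1.26 (1.06 to 1.46) was left by cluster and 1.16 (0.92 to 1.4) by both, with 36.3% removed. For Gm46332 the cluster shares left 0.50 (0.33 to 0.67) and for 1700097N02Rik 0.33 (0.18 to 0.47), and adding the gain gave 0.44 and 0.40. These values rest on few time 1 cells, since the Tdh-led cluster held 55 and the smallest of the 9 combinations 18. The intervals do not cover a wrong assignment of those cells. Apoa2, Gm46332 and 1700097N02Rik are leading genes of the Tdh-led cluster, and the members were chosen partly for such a lead. A smaller ratio after weighting by cluster follows in part from that choice, so these remainders are descriptions.

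**Figure D4:**
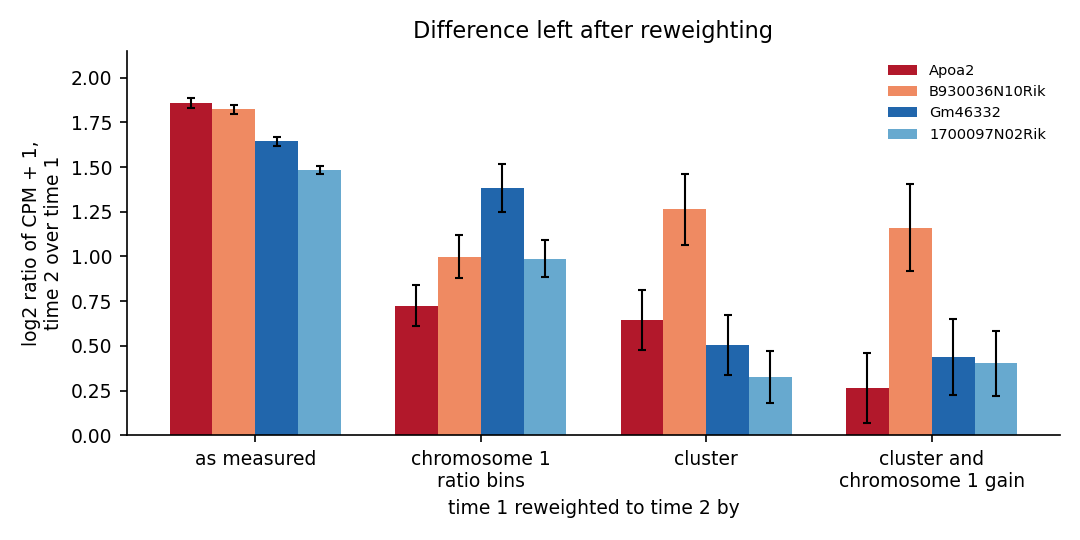
Log2 ratio of CPM plus 1, time 2 over time 1, as measured and after time 1 was reweighted to time 2 by chromosome 1 ratio, by cluster, or by cluster and gain together, with 95% counting intervals. Ratio bins were weighted by shares of cells, and clusters and gains by shares of UMIs. The bar of Apoa2 goes from 1.86 to 0.27, and that of B930036N10Rik from 1.82 to 1.16.

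Gains of other chromosomes were set beside that of chromosome 1. Cells of time 2 with a gain of chromosome 1 alone had Apoa2 at 74.8 CPM, with chromosomes 1 and 8 at 70.1 CPM, with 1 and 14 at 73.0 CPM and with all 3 at 69.5 CPM. Cells with a gain of chromosome 8 alone had 36.3 CPM and cells with none of the 3 had 26.5 CPM. The levels with a chromosome 1 gain thus lay within 69.5 to 74.8 CPM at time 2 with or without a gain of chromosomes 8 and 14. B930036N10Rik was at 70.4, 67.4, 76.3 and 71.1 CPM in the same 4 classes, and at 45.9 and 41.4 CPM in the last 2. Gm46332 was highest in cells with none of the gains, at 62.3 CPM, and lowest with a gain of chromosome 8 alone, at 35.3 CPM.

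Apoa2 also differed by the X-linked share of RNA. Cells without Y RNA were split by this share, at a ratio of 1.2, into X-high and X-low. X-high cells numbered 7226 at time 1 and 3107 at time 2, and X-low cells 5519 and 14378. The split is by RNA and did not hold the cluster fixed. Time 1 was not reweighted to these classes. At time 1 Apoa2 was at 9.12 CPM in X-high cells and 21.2 CPM in X-low cells, a log2 ratio of -1.13, and in Y-positive cells at 18.8 CPM. Among ungained cells of time 2 it was at 16.4 CPM in X-high and 41.3 CPM in X-low cells, a log2 ratio of -1.28. The gain itself was called in 7.69% of X-high and 71.6% of X-low cells of time 2. Gained and ungained cells of the population thus differed in these classes too. Whether Apoa2 was 2-fold higher with a gain inside 1 class was not tested. Gm46332 ran the other way, at 17.5 and 12.5 CPM at time 1 and at 65.4 and 42.0 CPM in ungained cells of time 2, while 1700097N02Rik had less RNA in X-high than in X-low cells, at 17.5 and 26.9 CPM at time 1 and 33.3 and 75.35 CPM in ungained cells of time 2. B930036N10Rik was at 17.5 and 14.8 CPM at time 1 and at 38.8 and 46.7 CPM in ungained cells of time 2.

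Genes close to the members did not share their size of difference. Within 500 kb of Apoa2, 14 other genes had at least 10 CPM, with a median log2 ratio of 0.41 between the libraries, and only B930036N10Rik reached a 2-fold difference among them. The nearest, Tomm40l (2.54 kb away, a mitochondrial import protein), had 9.26 and 14.4 CPM, a log2 ratio of 0.59. Further on, B4galt3, Usf1 and F11r had log2 ratios of -0.16, -0.13 and -0.32. F11r, the nearest to B930036N10Rik among these genes at 35.97 kb, had 49.5 and 39.5 CPM. With a chromosome 1 gain at time 2 the neighbours of Apoa2 lay close together, with a median log2 ratio of 0.41. The genes Tomm40l and B930036N10Rik had 0.67 each, and Apoa2, at 1.18, stood above all of them.

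**Figure D5:**
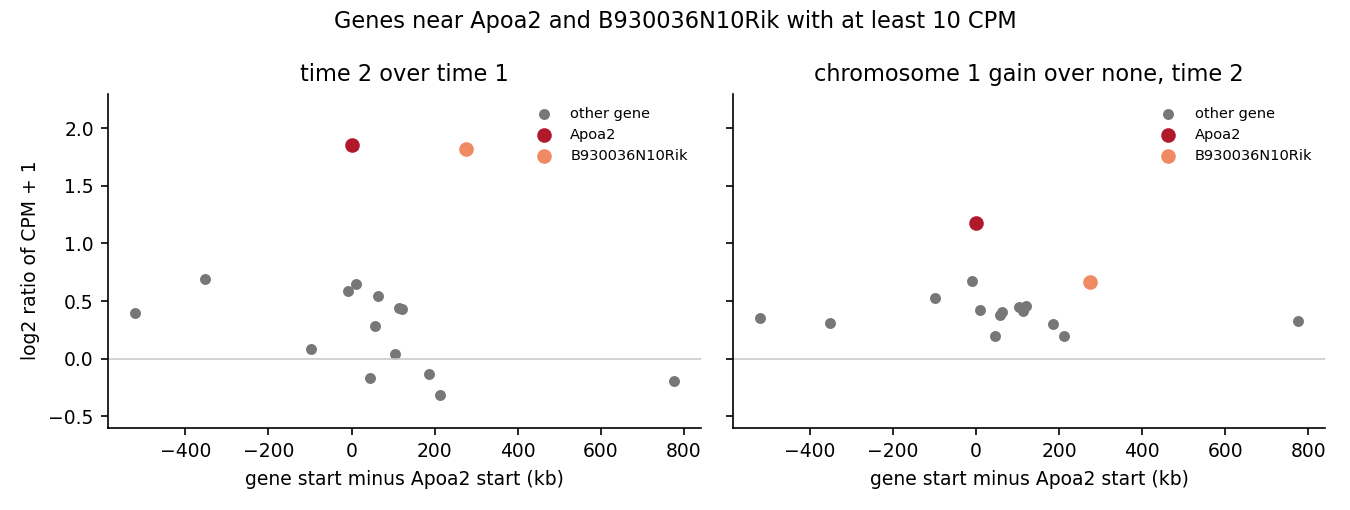
Log2 ratio of CPM plus 1 against distance from the Apoa2 start for genes with at least 10 CPM within 500 kb of Apoa2 or B930036N10Rik, for time 2 over time 1 (left) and gained over ungained cells of time 2 (right). Apoa2 (1.86 and 1.18) and B930036N10Rik (1.82 and 0.67) are coloured, and the other genes lie at or below 0.69 in the left panel.

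Around the other members, genes differed in both directions. Within 500 kb of Gm46332, 7 other genes had a median log2 ratio of -0.01, with Ubxn2a highest at 0.73 and Ncoa1 lowest at -0.66. Within 500 kb of 1700097N02Rik, 4 other genes had a median of 0.11, from -0.50 (Zfand3) to 0.74 (Dnah8). The overlapping Dnah8, a dynein heavy chain gene, had 5.63 and 10.1 CPM. Along chromosome 1, medians in 10 Mb windows ran from 0.11 to 0.78, and the window from 170 to 180 Mb, which holds Apoa2 and B930036N10Rik, had a median of 0.29 over 37 genes.

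In single cells, thinned to 10000 UMIs each so that depth does not decide, 13.4% of population cells (interval 12.9 to 13.9%) had an Apoa2 UMI at time 1 and 39.2% (38.5 to 39.9%) at time 2. With all UMIs, at median depths of 42943 and 50472, the shares were 42.3% and 81.3%. In fibroblast-like cells 9.06% and 19.7% of thinned cells had an Apoa2 UMI, at median depths of 42748 and 61748, and in Lhx1-led cells 2.47% and 5.45%. The share for B930036N10Rik went from 12.7% to 36.1% in the population and from 13.0% to 24.2% in fibroblast-like cells, so at time 1 the share in the population was no higher than in fibroblast-like cells. B930036N10Rik was also the most unevenly spread. Its variance was 2.8 times its mean at time 2, against 1.26 for Apoa2. The cell with the most held 129 UMIs of it, and 39 cells held 50 or more, while no cell held more than 31 UMIs of Apoa2. Leaving those 39 cells out changed its level from 60.1 to 58.0 CPM. Between pairs of members, Pearson's r over thinned cells of time 2 lay between -0.0034 and 0.1303, the highest for Gm46332 with 1700097N02Rik, and such weak values in sparse counts are no finding.

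Over 21 profiles, each the sum of a cluster in 1 library where it had at least 100 cells, the genes most like Apoa2 in log2 of CPM plus 1, among the 2838 genes that reached 50 CPM, were 1700097N02Rik (Pearson's r 0.88), Eef1b2 (0.88) and Dyrk3 (0.80), the last 2 on chromosome 1. For B930036N10Rik they were Nmt1 (0.94), AY036118 (0.94) and Bzw1 (0.91), for Gm46332 Nr0b1 (0.98), Mymx (0.94) and Kat6b (0.93), and for 1700097N02Rik Dnase2a (0.92), Apoa2 (0.88) and Gdf3 (0.88). The profiles share 2 libraries and their depth, so r is descriptive. The chromosome 1 neighbours Apoa2 and B930036N10Rik had an r of only 0.55 with each other.

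Among the lipoprotein genes with at least 10 CPM, Apoa2 was the only one to reach a 2-fold higher level, and it was chosen for that difference. Of 22 genes of lipoprotein handling, 8 had at least 10 CPM, of which 1 (Apoa2) was at least 2-fold higher at time 2 and 1 (Lrp2, an endocytic receptor) at least 2-fold lower, at 10.8 and 4.44 CPM. The median log2 ratio of the 8 was -0.66, against -0.01 for all 7385 genes with that minimum, of which 1.26% were at least 2-fold higher. The share that were at least 2-fold lower is not given here, so nothing is read from the call of Lrp2. Apoe, which carries lipids between cells, had 554.8 and 541.0 CPM. Apoc1, a small apolipoprotein, had 86.7 and 47.5 CPM. Apoa1, the partner of Apoa2 in high-density lipoprotein, was at 0.714 and 0.408 CPM. Of 14 regulators known to act on apolipoprotein genes in liver, 5 had at least 10 CPM and none was 2-fold higher or lower, with a median of -0.37. Hnf4a, a liver transcription factor, was at 0.3 and 0.105 CPM.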

How the data were processed

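Single-cell RNA libraries of time 1 and time 2 were made by the 10x method, and the authors deposited 1 matrix of UMI counts per library, made with Cell Ranger 6.1.2 and bcl2fastq 2.20.0.422 per the submitters' processing notes. Build mm10 is named there too, and strand use is not given in the sources used here. A barcode was kept as a cell if its UMIs reached 0.1 of the level of the 99th percentile in the top 20000, if it had 1000 genes or more, and if mitochondrial UMIs were no more than 10%. The automatic Scrublet threshold (scanpy 1.11.5) marked 0 and 1 cells, so cells with the top 10% of scores were removed (2525 and 2766), a choice made after this was seen. Clusters came from Leiden at resolution 0.5 (igraph 0.11.9; 2000 variable autosomal genes, 30 components, 15 neighbours). Levels are summed counts as CPM with exact Poisson intervals, ratios are log2 of CPM plus 1, and shares have Clopper-Pearson intervals. Chromosome 1 ratios used cells thinned to 10000 UMIs (median 302 informative chromosome 1 UMIs per cell). The members, markers and lists were chosen with earlier results of these data known. Named genes were the members, genes within 500 kb of them, the top 5 of chromosome 1, the next 5 in the ranking below the members, the 3 most like each member, and the lists. The steps were tested on simulated counts. Alternatives were other filters, scalings (edgeR 4.0.16), pseudocounts, thresholds and clusterings. Lipid tags were not used here.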

Additional observations from a re-analysis of the deposited data

Results flagged for a closer look

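The gene 1700097N02Rik differed in opposite directions between clusters. Its log2 ratio of time 2 over time 1 was -0.25 (-0.37 to -0.14) in the Rhox9-led cluster (679 over 7220 cells) and 1.86 (1.67 to 2.04) in the fibroblast-like cluster (677 over 508 cells). Its interval lay below 0 in 1 of 11 clusters and above 0 in 9. The difference between the clusters was not tested.

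With a chromosome 1 gain at time 2, 1700097N02Rik was lower in Tdh-led cells, at a log2 ratio of -0.47 (-0.50 to -0.44), and higher in fibroblast-like cells, at 1.45 (1.28 to 1.62). Gm46332 had -0.83 (-1.47 to -0.19) in Rhox9-led cells, from 64 gained and 615 ungained cells, and 1.45 (1.24 to 1.65) in fibroblast-like cells, from 67 and 610. These differences between clusters were not tested, and neither gene lies on chromosome 1. Whether the gained fibroblast-like cells hold RNA of stem cells was not tested either.

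B930036N10Rik was found in barcodes below the cell filter in both libraries, with 20.2 CPM (19.4 to 21.0) for time 1 and 72.3 CPM (67.6 to 77.2) for time 2.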

How the results depend on the processing

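The median log2 ratio of the 4 genes between the libraries, 1.73, lay between 1.52 and 1.86 over 13 alternatives, with no change of direction. It was 1.78 with primed epiblast-like clusters, with cells chosen by marker UMIs or with doublets kept, 1.79 and 1.52 with pseudocounts of 0.1 and 5 CPM, 1.86 with trimmed mean scaling (which moved the median of all genes by 0.134), 1.69 with a mitochondrial limit of 20%, and 1.77 when scaled to autosomes other than 1, 8 and 14. Without the Spry2-led and Krt18-led clusters, an alternative chosen after seeing the data, it was 1.61. In ungained cells the median of 1.37 became 1.33 and 1.51 at gain thresholds of 1.2 and 1.4, 1.27 in all filtered cells, 1.3 with primed clusters or with abundant genes kept in the ratio, 1.41 with a pseudocount of 0.1 CPM and 1.31 without the Spry2-led and Krt18-led clusters. Between gained and ungained cells the median of 0.46 became 0.49 and 0.36 at those thresholds, 0.56 in all filtered cells, and 0.52 with primed clusters or abundant genes. Gm46332 changed sign there, from -0.07 to 0.23 in all filtered cells and 0.16 with primed clusters, and the cause was not tested. Apoa2 lay between 0.80 and 1.38 in that comparison, and fell short of 2-fold at the threshold of 1.4 alone. In ungained cells its ratio of 1.07 lay between 0.85 and 1.46 over 9 alternatives and was below 1 in 5 of them, with 0.85 and 1.46 at thresholds of 1.2 and 1.4.

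The count of 47 genes at least 2-fold higher became 93 with a minimum of 10 CPM, 132 with no minimum, 30 in all filtered cells, 74 with trimmed mean scaling and 31 without the Spry2-led and Krt18-led clusters. The median share of UMIs in the cluster with the highest level, 59.9%, became 64.3% and 25.2% at resolutions 0.3 and 1.0, 43.4% when the members and nearby genes entered the clustering, and 62.5% without chromosomes 1, 8 and 14. Clustering settings also changed the population, from 15979 to as few as 7273 cells at time 1. No paired analysis was made, since each group is 1 library and the lipid tags of the lines were not used. Levels in time 1 cells with a gain rest on 165 cells, and levels near 1 CPM on few UMIs.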
